A study of Homo sapiens with 14 samples.

Results

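The 2 mature products of the MIR22 hairpin, miR-22-3p and miR-22-5p, were followed across small RNA libraries of PANC-1, an established human line derived from ductal carcinoma of the pancreas. They were taken by name from a table of read counts and are 2 of its 2848 entries. The cells grew in DMEM with 10% fetal bovine serum and received either grape proanthocyanidins (PA), which are condensed tannins built from flavan-3-ol units, at a dose of 20 µg/ml, or only the vehicle DMSO. The 7 groups were PA at 3, 12 and 24 h and DMSO at 0, 3, 12 and 24 h, each with 2 libraries lettered A and B, and all of them came from the same line with no further genotype or agent named. Whether A and B were separate cultures is not stated, so the p-values measure the spread between these libraries, which may be in part technical.

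MicroRNAs are cut from a hairpin as a duplex of a 5p and a 3p strand. One strand is usually kept in Argonaute as the guide that pairs with messenger RNAs through its seed, while its partner is mostly degraded. The guide of MIR22 is the 3p strand, known in human cells to repress ESR1, SIRT1 and CDK6, and MIR22 has been described as a p53-responsive locus.

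In the GENCODE annotation of GRCh38 the MIR22 hairpin (ENSG00000283824.1) was on the minus strand of chromosome 17, from 1713903 to 1713987, a span of 85 bases. It lay inside the long noncoding host gene MIR22HG (ENSG00000186594.14, chromosome 17, 1711493 to 1717174, minus strand), within an exon of all 19 annotated host transcripts. RefSeq on GRCh38.p14 gave the mature sequences, each 22 bases long, shown here because the seed decides which targets a strand can pair with. Capitals mark the seed, bases 2 to 8 from the 5′ end.
hsa-miR-22-3p: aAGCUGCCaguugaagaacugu
hsa-miR-22-5p: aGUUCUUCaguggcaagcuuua
The 3p strand is at chr17:1713914-1713935 and the 5p strand at chr17:1713952-1713973, both on the minus strand, with 16 bases between them. RNAduplex aligned bases 1 to 21 of one strand with bases 1 to 21 of the other. It gave 19 base pairs, with base 21 of each strand unpaired, and a computed energy of -24.60 kcal/mol. Of the 2370 mature human names in the RefSeq set, 0 others had the seed of either strand. With only bases 2 to 7 compared, the 5p strand shared them with 1 other, miR-2116-5p. The closest other mature sequence over at least 18 aligned bases differed from the 3p strand at 5 bases (miR-6512-5p), and from the 5p strand at 6 bases (miR-3155a and miR-381-3p).

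The libraries held 1032391 to 3111014 counted reads (median 2076388). Levels are given as CPM, read counts scaled by library total and TMM factor, and both strands have the same length. Rank correlations between libraries A and B of a group ran from 0.925 to 0.976 over the tested entries. Summed miRNA markers of other cell types overlapped between treatments. Red blood cell markers summed to between 296 and 554 CPM in the 6 PA libraries, against 315 to 591 CPM in the 8 DMSO libraries. Of these 4 markers, only miR-486-5p was abundant enough to be tested. Both strands of its hairpin together averaged 432 CPM, so this sum was mostly miR-486. Haematopoietic markers summed to between 1.68 and 4.03 CPM with PA, against 1.64 to 6.37 CPM with DMSO. Fibroblast and endothelial markers summed to between 508 and 711 CPM with PA, against 401 to 873 CPM with DMSO. The 5 of these that were tested had a median log2 fold change of PA over DMSO of -1.43 at 3 h, 2.18 at 12 h and -1.62 at 24 h. Each median was the value of miR-199a-5p, with an SE of 1.33, 1.74 and 1.40. The most abundant of the 5, miR-126-3p, gave -0.12 ± 0.19 (SE), 0.43 ± 0.19 and -0.01 ± 0.19. Of these 5, 0 passed edgeR at any of the 3 times, where 0.247%, 11.1% and 6.67% of all entries passed. The part of these marker differences in the miR-22 results was not tested. Markers of muscle, liver and neurons stayed at or below 7.22 CPM with PA and 7.43 CPM with DMSO, and those of acinar and islet cells at or below 10.02 CPM with PA and 10.2 CPM with DMSO. The epithelial miR-200 family summed to between 53.4 and 85.8 CPM with PA, against 50.02 to 81.2 CPM with DMSO, far below miR-22-3p although the line is of epithelial origin. Of the markers in the table, 0 were at zero in every library.

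miR-22-3p was among the most abundant miRNAs of these cells. It took 53810 to 144771 reads, or 3.05% to 5.88% of each library, and ranked between 4 and 9 among all entries. Its mean of 46282 CPM over the 14 libraries placed it at rank 5, below miR-29a-3p at 55039 CPM and above miR-146a-5p at 39338 CPM. DMSO at 0 h gave 44065 and 44218 CPM in libraries A and B. At 3 h it stood at 49841 and 47258 CPM with PA, against 55291 and 44149 CPM with DMSO. At 12 h it stood at 47415 and 30780.3 CPM with PA, against 43009 and 55158 CPM with DMSO. At 24 h it stood at 50069.7 and 45943 CPM with PA, against 41512 and 49246 CPM with DMSO.

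Library B of PA at 12 h was the lowest of the 14; the next lowest, library A of DMSO at 24 h, had 41512 CPM. The highest library exceeded the lowest 1.80-fold, and the coefficient of variation over all 14 was 13.2%. The counting error of a single library was 0.263% to 0.431% if reads are taken as independent. By group mean the order from high to low was DMSO 3 h, DMSO 12 h, PA 3 h, PA 24 h, DMSO 24 h, DMSO 0 h and PA 12 h. Their means ran from 49720.1 ± 7878 CPM (SD, n = 2) at DMSO 3 h to 39098 ± 11762 CPM (SD, n = 2) at PA 12 h. Each group's 2 libraries overlapped with those of its neighbour in this order.

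**Figure D1:**
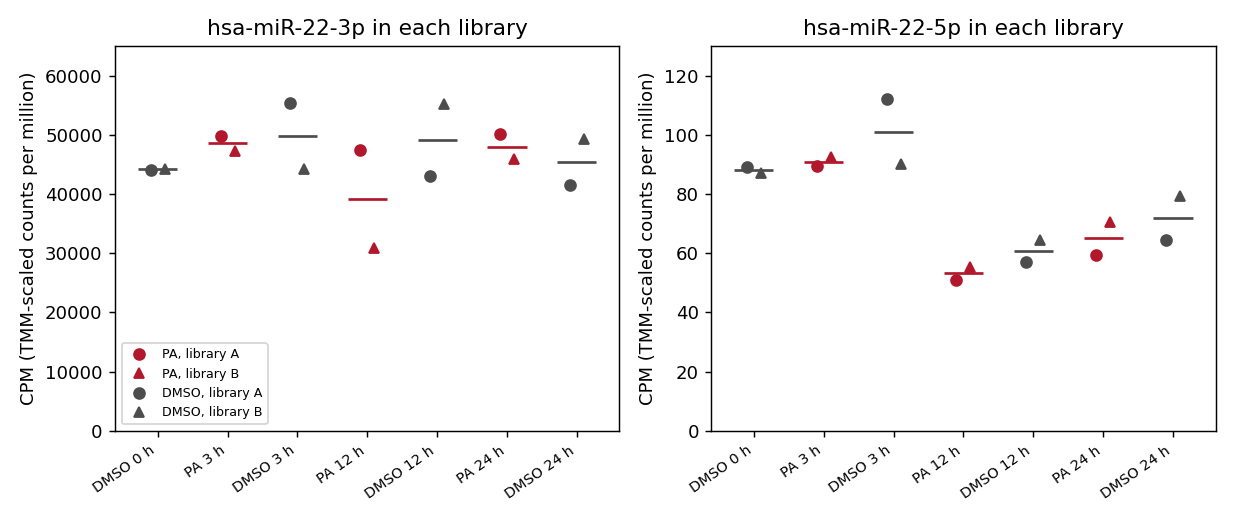
CPM of miR-22-3p (left) and miR-22-5p (right) in each of the 14 libraries, by group along the horizontal axis. Circles are library A, triangles library B and bars group means; the 3p strand overlaps between groups that are neighbours in mean, while the 5p strand lies at 50.9 to 79.3 CPM at 12 and 24 h, against 87.1 to 112 CPM at 0 and 3 h.

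miR-22-5p, the partner strand, was a minor product. It took 71 to 293 reads, or 0.00525% to 0.0106% of each library, and ranked between 229 and 293. DMSO at 0 h gave 89.2 and 87.1 CPM in libraries A and B. At 3 h it stood at 89.4 and 92.4 CPM with PA, against 112 and 90.0 CPM with DMSO. At 12 h it stood at 50.9 and 55.4 CPM with PA, against 56.9 and 64.6 CPM with DMSO. At 24 h it stood at 59.3 and 70.6 CPM with PA, against 64.4 and 79.3 CPM with DMSO.

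The 8 libraries of 12 and 24 h lay at 50.9 to 79.3 CPM and did not overlap with the 6 libraries of 0 and 3 h at 87.1 to 112 CPM, whichever the treatment. The highest library exceeded the lowest 2.20-fold. Counting error alone was 5.84% to 11.9% per library. By group mean the order was DMSO 3 h, PA 3 h, DMSO 0 h, DMSO 24 h, PA 24 h, DMSO 12 h and PA 12 h, from 101 ± 15.5 to 53.1 ± 3.14 CPM (SD, n = 2 each). Libraries of neighbouring groups overlapped between DMSO 3 h and PA 3 h, between DMSO 24 h and PA 24 h, and between PA 24 h and DMSO 12 h. They did not overlap at the other 3 steps, which is a description of 2 libraries per group. The step from PA 3 h to DMSO 0 h rested on 89.4 against 89.2 CPM, well within the counting error. That from DMSO 12 h to PA 12 h rested on 56.9 against 55.4 CPM, also within the counting error.

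Neither strand changed with PA past the threshold, an adjusted p of 0.05. The tests were edgeR's quasi-likelihood F tests with Benjamini-Hochberg adjustment over the 810 entries tested, 808 for the mean effect. The level of miR-22-3p gave a log2 fold change of PA over DMSO of -0.03 ± 0.19 (SE) at 3 h, -0.33 ± 0.19 at 12 h and 0.08 ± 0.19 at 24 h, with edgeR adjusted p of 1, 0.302 and 0.854. With libraries scaled to total counts the 24 h value was -0.10, and the median of all entries moved alike, to -0.19 with total counts from -0.01 with TMM. For the mean over the 3 times the value was -0.09 ± 0.13 with an edgeR adjusted p of 0.840, and a 95% interval from -0.38 to 0.19 on the log2 scale. As ranges, the 6 PA libraries of these times ran from 30780.3 to 50069.7 CPM with a median of 47336, and the 6 DMSO libraries from 41512 to 55291 CPM with a median of 46698. In bulk RNA, fewer cells of a kind and less of an RNA per cell cannot be told apart.

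The 12 h value of miR-22-3p rested on library B of PA at 12 h. Without that library the log2 fold change was 0.0016 (edgeR adjusted p = 1), and without library A of the same group it was -0.64 (edgeR adjusted p = 0.105). Without library B of DMSO at 12 h it was -0.13 (edgeR adjusted p = 0.784). Over all entries, 0.247% passed at 3 h, 11.1% at 12 h and 6.67% at 24 h, and miR-22-3p was not among them at any of these times.

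The level of miR-22-5p gave -0.15 ± 0.21 at 3 h, -0.19 ± 0.22 at 12 h and -0.15 ± 0.21 at 24 h as the log2 fold change of PA over DMSO, with edgeR adjusted p of 1, 0.636 and 0.759. The mean over the 3 times was -0.16 ± 0.13 with an edgeR adjusted p of 0.627, and a 95% interval from -0.44 to 0.11. The group mean was lower with PA than with DMSO at each of the 3 times, but the libraries overlapped at 3 h and 24 h. At 12 h the nearest libraries, 55.4 CPM with PA and 56.9 CPM with DMSO, differed by less than the counting error. An exact two-sided permutation test of the log2 CPM within times, over 216 arrangements and with 0.00926 as its smallest possible p, gave p = 0.0833 for the 5p strand and p = 0.556 for the 3p strand. With the mean of DMSO at 3 h and 24 h in place of DMSO at 12 h, the 12 h value of the 5p strand became -0.68 (edgeR adjusted p = 0.238). That value compares different times, so it also holds the time difference seen in DMSO cells and is not a larger PA effect. The DMSO group means were 101 CPM at 3 h, 60.7 CPM at 12 h and 71.8 CPM at 24 h.

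For the mean PA effect, edgeR called 0% of all entries, although 118 had an unadjusted p under 0.05 and DESeq2 called 14. Nor did the PA effect on either strand differ between times past the threshold. The edgeR adjusted p of that interaction was 0.567 for miR-22-3p and 0.994 for miR-22-5p, while 5.93% of all entries passed.

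**Figure D2:**
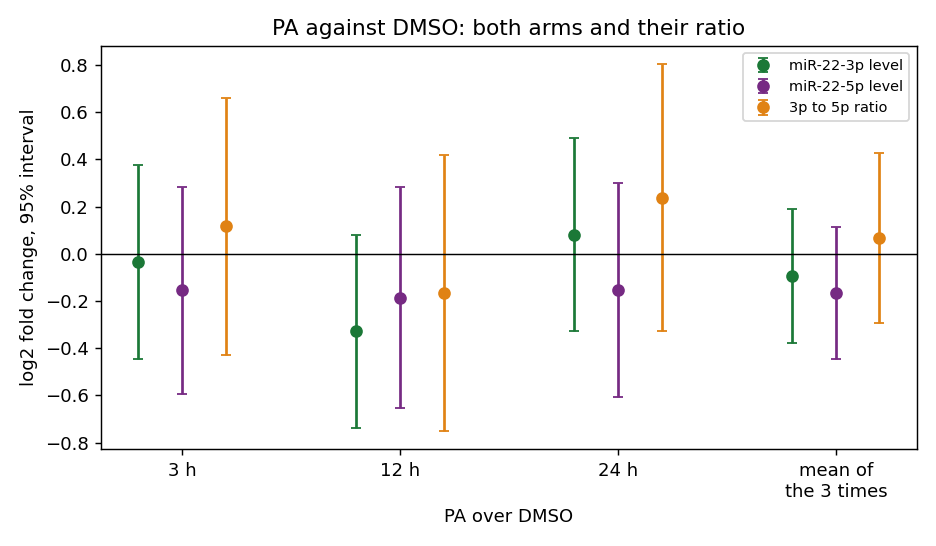
Log2 fold change of PA over DMSO at 3, 12 and 24 h and as the mean over the 3 times (horizontal axis), for the level of each strand and for the 3p to 5p ratio, from the edgeR fits. Points are estimates and bars 95% intervals; all 12 intervals include 0.

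Over time, no change of either strand passed with edgeR, though the 5p libraries lay apart by time as described. In DMSO cells the level of miR-22-5p differed from 0 h by a log2 fold change of 0.20 at 3 h, -0.54 ± 0.22 (SE) at 12 h and -0.30 at 24 h. The edgeR test over all DMSO times gave this strand an adjusted p of 0.0880, outside the threshold, where 13.1% of all entries passed. The 8 alternative settings, DESeq2 and limma among them, gave this comparison an adjusted p from 0.101 to 0.358. DMSO at 12 h against DMSO at 0 h gave an edgeR adjusted p of 0.121, where 12.7% of entries passed. For miR-22-3p the same DMSO times gave 0.17, 0.15 and 0.04, and an edgeR adjusted p of 0.841 over time.

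In PA cells miR-22-5p stood at 53.1 ± 3.14 CPM at 12 h, against 90.9 ± 2.16 CPM at 3 h (SD, n = 2 each). The log2 fold change was -0.77 ± 0.21 (SE). The edgeR adjusted p was 0.175, and edgeR called 0% of entries in this comparison, with 82 at an unadjusted p under 0.05 and 4 called by DESeq2. By unadjusted p the strand ranked 9 of 810. PA at 24 h against PA at 3 h gave -0.49 ± 0.21 (edgeR adjusted p = 0.229), where 3.95% of entries passed. The 3p strand gave -0.31 and -0.02 in these comparisons, with edgeR adjusted p of 0.614 and 0.979.

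A fit of both treatments together, chosen after the values of the 5p strand had been seen, gave miR-22-5p a log2 fold change of -0.79 ± 0.16 (SE) at 12 h against 3 h, with 4 libraries at each time. Its edgeR adjusted p was 0.0558, which missed the threshold, and its unadjusted p ranked 2 of 808. edgeR called 0% of all entries here, with 140 at an unadjusted p under 0.05, while DESeq2 called 41, among them miR-22-5p with an adjusted p of 0.00499. With edgeR the change passed at a mean CPM of at least 10. With the letters A and B as a replicate block, its edgeR adjusted p was 0.101. With 1 library left out at a time, its log2 fold change ran from -0.89 to -0.70. Because the comparison was chosen after the values had been seen, its p-values cannot decide whether the strand changed. At 24 h against 3 h the value was -0.55 ± 0.16 with an edgeR adjusted p of 0.168. edgeR again called 0% of entries, with 94 at an unadjusted p under 0.05, and DESeq2 called 17. The 3p strand gave -0.19 at 12 h (edgeR adjusted p = 0.608) and -0.13 at 24 h (edgeR adjusted p = 0.817) against 3 h.

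In the whole table, 1.36% of tested entries had all 8 libraries of 12 and 24 h below all 6 libraries of 0 and 3 h, as miR-22-5p did, and 0.864% had them all above. These times were set together after the values of the 5p strand had been seen, so the separation is a description.

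The ratio of the strands followed from these levels. It is a ratio of reads within a library, so scaling between libraries does not enter it, and it need not equal the ratio of molecules. DMSO at 0 h gave 494 and 508 reads of 3p per read of 5p in libraries A and B. At 3 h the ratio was 558 and 511 with PA, against 494 and 490.4 with DMSO. At 12 h it was 931 and 556 with PA, against 756 and 854 with DMSO. At 24 h it was 844 and 650.5 with PA, against 645 and 621 with DMSO.

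Both the highest ratio of all and the lowest of the 12 h and 24 h libraries came from PA at 12 h. The 5p strand made up between 0.107% (95% Wilson interval 0.0883% to 0.130%, PA 12 h A) and 0.204% (0.174% to 0.238%, DMSO 3 h B) of the reads of both strands; these intervals cover counting error only. The 8 libraries of 12 and 24 h ran from 556 to 931, and the 6 of 0 and 3 h from 490.4 to 558. The one overlap was PA 12 h B at 556 with PA 3 h A at 558. By group mean the ratio was 501 ± 9.69 at DMSO 0 h, 535 ± 32.8 with PA and 492 ± 2.62 with DMSO at 3 h, 744 ± 265 with PA and 805 ± 69.4 with DMSO at 12 h, and 747 ± 137 with PA and 633 ± 16.9 with DMSO at 24 h (SD, n = 2 each).

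**Figure D3:**
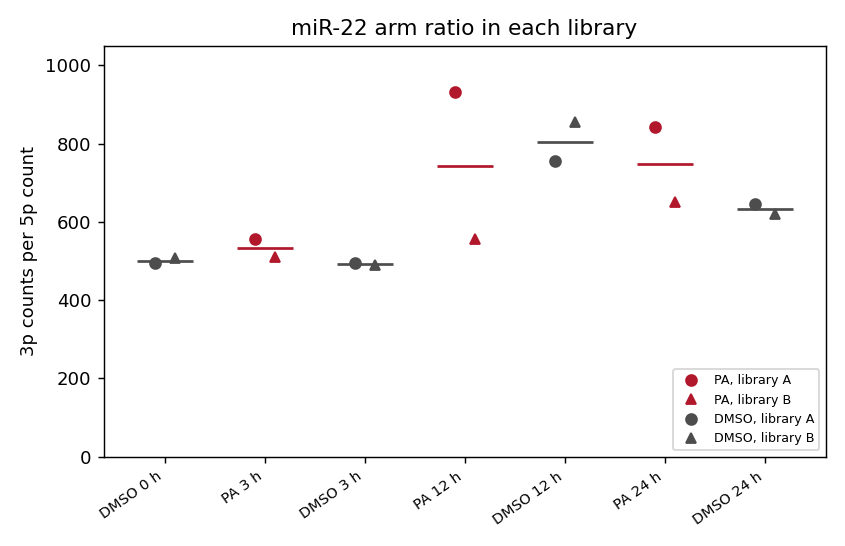
Reads of miR-22-3p per read of miR-22-5p (vertical axis) in each library, by group. Circles are library A, triangles library B and bars group means; PA at 12 h spans 556 to 931, and the libraries of 0 and 3 h lie between 490.4 and 558.

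The ratio was tested with edgeR across the 162 hairpins whose strands both passed the filter. PA against DMSO gave a log2 change of the miR-22 ratio of 0.12 ± 0.26 (SE) at 3 h, -0.17 ± 0.28 at 12 h and 0.24 ± 0.27 at 24 h, with edgeR adjusted p of 0.998, 0.832 and 0.669. Among all hairpins 0% were called at 3 h, with 1 at an unadjusted p under 0.05, then 5.56% at 12 h, and 0% at 24 h with 23 at an unadjusted p under 0.05. limma on the log2 ratios called 0 hairpins at 3 h and 0 at 24 h. The mean over the 3 times was 0.07 ± 0.17 (edgeR adjusted p = 0.866), with a 95% interval from -0.29 to 0.43, where 0.617% passed. An exact two-sided permutation test of the log2 ratio within times gave 0.06 with p = 0.639. The median ratio was 604 in the 6 PA libraries and 633 in the 6 DMSO libraries of these times.

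The 1 hairpin called for the mean PA effect was miR-188, whose 3p to 5p ratio was higher with PA by 1.19 ± 0.27 on the log2 scale (edgeR adjusted p = 0.0428), a call lost under all 18 alternatives run. Over the DMSO times the miR-22 ratio gave an edgeR adjusted p of 0.237, where 6.17% of hairpins passed, and DMSO at 12 h against DMSO at 0 h gave 0.68 ± 0.27 (edgeR adjusted p = 0.121), where 14.8% passed. In both treatments together the log2 change of the ratio was 0.56 ± 0.21 at 12 h against 3 h (edgeR adjusted p = 0.148), where 2.47% of hairpins passed. At 24 h against 3 h it was 0.42 ± 0.21 (edgeR adjusted p = 0.572), where 1.23% passed.

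MIR22 was strongly one-sided beside the other hairpins whose strands both passed the filter. Its mean log2 ratio of 9.27, or 619-fold, ranked 7 of 162 by size, against a median size of 3.14, or 8.84-fold. Hairpins with a strand below the filter were left out, among them any whose minor strand was too rare to pass. The 3p strand was the higher one in 73 hairpins and the 5p strand in 89, and the ratio exceeded 100-fold in 24. The 6 hairpins with a larger imbalance were miR-100, miR-3074, miR-23a, let-7g, miR-29a and miR-27b, of which miR-23a, miR-29a and miR-27b also favoured the 3p strand. How the counting treated strand and multiply mapping reads is not given. Reads from another locus can therefore not be told apart in these ratios. For miR-4633 the counts of the 2 strands were nearly equal, at a log2 ratio of 0.0025 with an SD of 0.0066 between libraries of a group. That SD is very small for a hairpin with 186 CPM in both strands together. Whether the same reads were counted for both strands was not tested, so these counts do not show equal strands. The log2 ratio of miR-22 varied by 0.23 (SD) between libraries of a group, against a median of 0.42 over the hairpins, the 27th lowest of them. That value pools groups from 0.0092 at DMSO 3 h to 0.52 at PA 12 h. Hairpins with fewer reads also carry more counting error, so the rank depends in part on abundance.

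**Figure D4:**
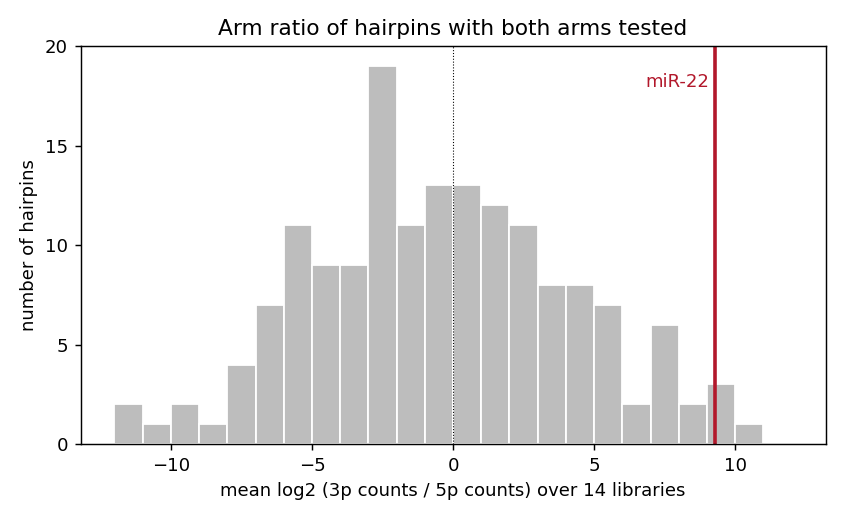
Number of hairpins (vertical axis) by mean log2 ratio of 3p to 5p reads over the 14 libraries (horizontal axis), for the 162 hairpins with both strands tested. The red line is miR-22 at 9.27, near the 3p end of a distribution with 73 hairpins above 0 and 89 below.

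The strands did not follow each other closely from library to library. Over the 14 libraries, the log2 CPM of miR-22-3p and miR-22-5p had a Pearson r of 0.39 (Spearman rho 0.32). By r, miR-22-5p was 78th among the 681 other named entries in likeness to miR-22-3p, and miR-22-3p was 126th in likeness to miR-22-5p. These are descriptions over libraries that share groups and depth.

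By Pearson r, the entries most like miR-22-3p were miR-16-2-3p (r 0.80), miR-505-3p (0.75), miR-181b-5p (0.75), miR-222-3p (0.72) and miR-193a-5p (0.71). Their Spearman rho with miR-22-3p was 0.54, 0.81, 0.84, 0.38 and 0.45 in that order. The rho of miR-222-3p was thus near that of miR-22-5p, 0.32. For miR-16-2-3p, miR-181b-5p, miR-222-3p and miR-193a-5p the lowest of the 14 libraries was again library B of PA at 12 h, with 21.9, 761, 715 and 36.2 CPM, which follows largely from choosing entries by their likeness to a miRNA that is lowest there. The entries most like miR-22-5p were miR-660-3p (r 0.90), miR-1307-3p (0.84), miR-29a-3p (0.79), miR-378c (0.78) and miR-31-5p (0.77). Of these, miR-29a-3p also kept the times apart, with 41603 to 54237 CPM at 12 and 24 h against 57711 to 63407 CPM at 0 and 3 h. Over all tested entries 1.36% did so in this direction. For miR-29a-3p it follows in part from choosing entries by their likeness to a miRNA that separates these times. None of these 10 entries passed with edgeR for PA against DMSO at 3, 12 or 24 h or for the mean, where 0.247%, 11.1%, 6.67% and 0% of all entries passed. The nearest was miR-16-2-3p at 12 h, at -0.81 ± 0.31 on the log2 scale (edgeR adjusted p = 0.111).

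Other miRNAs tied to MIR22 by regulation, place or kind of host gene were read beside it. Over all entries edgeR called 0.247% at 3 h, 11.1% at 12 h and 6.67% at 24 h. None of the calls named at 12 h in the lists that follow held with the mean of DMSO at 3 h and 24 h in place of DMSO at 12 h, where edgeR adjusted p ran from 0.324 for miR-210-3p to 0.933 for miR-146a-5p. The sign of miR-424-5p also turned there, to -0.17. With only the compared groups fitted, miR-210-3p and miR-27a-3p kept their 12 h calls (edgeR adjusted p = 0.0167 and 0.0478). The other calls named at 12 h were lost in that fit, with edgeR adjusted p from 0.0634 for miR-23a-3p to 0.204 for let-7i-5p. Of the calls named at 24 h, that fit kept only miR-100-5p (edgeR adjusted p = 0.0437).

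Of 13 listed p53-responsive miRNAs, miR-22-3p included, 9 were tested, and 2 rose with PA at 12 h and 0 fell, where 11.1% of all entries passed. miR-34a-5p, a direct p53 target that restrains the cell cycle, was higher by 1.12 ± 0.25 on the log2 scale (edgeR adjusted p = 0.0108). miR-107, from an intron of PANK1, was higher by 0.73 ± 0.16 (edgeR adjusted p = 0.0107). The call of miR-34a-5p was lost without library B of DMSO at 12 h, and that of miR-107 without library A of PA at 12 h. The list had 0 calls at 3 h, at 24 h and for the mean. Its median log2 fold changes were -0.03, 0.02 and -0.09 at 3, 12 and 24 h, beside -0.01, -0.06 and -0.01 over all entries.

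Of 10 other miRNAs of the chromosome arm 17p13, 8 were tested and 0 were called at 3, 12 or 24 h, where 0.247%, 11.1% and 6.67% of all entries passed, so that a count of 0 is near the background. Their medians were -0.04, 0.21 and -0.03 at 3, 12 and 24 h. Of 13 miRNAs that also sit in noncoding host genes, 12 were tested, with 0 calls at 3 h. At 12 h, where 11.1% of all entries passed, 2 rose, the hypoxia-responsive miR-210-3p by 1.36 ± 0.19 (edgeR adjusted p = 0.000353) and miR-424-5p by 0.88 ± 0.21 (edgeR adjusted p = 0.0168). The call of miR-424-5p was lost without library A of PA at 12 h or library A of DMSO at 12 h. At 24 h, where 6.67% of all entries passed, miR-100-5p rose by 0.56 ± 0.15 (edgeR adjusted p = 0.0321) and miR-17-5p fell by 0.80 (edgeR adjusted p = 0.0158). The call of miR-100-5p was lost with total counts and without any of 6 single libraries, and that of miR-17-5p without any of 4. The medians of this list were 0.06, 0.14 and -0.25.

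Among the 20 most abundant entries, to which miR-22-3p belongs, 0 were called at 3 h. At 12 h, where 11.1% of all entries passed, 4 rose (miR-27a-3p, miR-27b-3p, miR-23a-3p and miR-374a-5p) and 3 fell (miR-146a-5p, miR-221-3p and let-7i-5p). With 1 library left out at a time the calls of miR-27a-3p and miR-23a-3p held in all 14 cases, while those of let-7i-5p and miR-221-3p were lost in 11 and 13. At 24 h, where 6.67% of all entries passed, 3 rose (miR-100-5p, miR-27a-3p and miR-99b-5p) and 0 fell, and these calls were all lost with total counts. miR-27a-3p, which comes from a cluster with miR-23a and miR-24, was higher by 0.94 ± 0.14 at 12 h (edgeR adjusted p = 0.000471). miR-146a-5p, the neighbour of miR-22-3p in rank and a brake on NF-κB signalling, fell by 0.62 at 12 h (edgeR adjusted p = 0.0113). That call was lost without library A or library B of PA at 12 h.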

How the data were processed

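Small RNA of 14 PANC-1 libraries was read. The authors deposited whole-number read counts per mature miRNA entry and a TPM table, in which values are the counts scaled to a fixed library total, with no length correction. The submitters' processing notes name Bowtie, bcl2fastq, edgeR and the build GRCh38; versions, strand settings and the handling of multiply mapping reads are not given in the sources used here. Entries passing filterByExpr (minimum count 10, minimum total 15) were fitted in R 4.3.3 with edgeR 4.0.16, TMM scaling and robust quasi-likelihood F tests, with all 14 libraries by group, or the 12 libraries of 3, 12 and 24 h with time plus treatment. P-values were adjusted over all tested entries. SE values are the log2 change divided by the square root of F. Strand ratios used 2 columns of counts per library, with library as a block. The script was tested on simulated data. DESeq2 1.42.0, limma 3.58.1 on log2(TPM + 1) and other scalings, filters and left-out libraries were alternatives. Duplex energies came from RNAduplex 2.7.2 (ViennaRNA), and 2059 of 2346 named entries matched RefSeq mature sequences.

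The members, lists and marker lists were chosen with earlier results of these data known. Named besides the members were the 5 entries most correlated with each, list members that passed, neighbours in rank of miR-22-3p, and hairpins that passed in the mean PA effect; hairpins ranked by imbalance were named after their values were seen. One list of miRNAs is not reported here.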

Additional observations from a re-analysis of the deposited data

How the results depend on the processing

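No change of a miR-22 strand or of their ratio with PA passed the threshold under any setting run. Signs of small miR-22-3p differences turned in some. With only the compared groups fitted, DMSO 24 h against DMSO 0 h was -0.019 and PA 24 h against PA 3 h was 0.016 on the log2 scale, which was 0.029 with a mean CPM of at least 10. PA against DMSO at 24 h was -0.10 with limma on TPM and -0.10 with total counts, where the median of all entries moved to -0.19. At 3 h it was 0.031 with no filter, and the mean PA effect was 0.052 without the 12 h libraries. The cause was not tested. miR-22-5p at 12 h against 3 h in both treatments passed with DESeq2 (-0.73) and with a mean CPM of at least 10 (-0.65, edgeR adjusted p = 0.0323).

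With 1 library left out at a time, on the log2 scale, for miR-22-3p PA against DMSO ran from -0.17 to 0.14 at 3 h, from -0.64 to 0.0016 at 12 h, from -0.020 to 0.23 at 24 h and from -0.14 to 0.027 for the mean. For the same strand, DMSO 12 h against 0 h ran from -0.038 to 0.33, DMSO 24 h against 0 h from -0.074 to 0.16, PA 24 h against 3 h from -0.092 to 0.041, and 24 h against 3 h in both treatments from -0.20 to 0.0018. For miR-22-5p, PA against DMSO ran from -0.29 to 0.013 at 3 h and from -0.28 to 0.025 at 24 h, and 12 h against 3 h in both treatments from -0.89 to -0.70 (edgeR adjusted p 0.0334 to 0.271). The PA effect on the strand ratio ran from -0.53 to 0.22 at 12 h and from -0.0030 to 0.18 for the mean. Where a group was left with 1 library, that library was assumed to vary like the others.

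Counts of entries called moved more. PA against DMSO called 90 entries at 12 h, but 2 with DMSO 3 h and 24 h in place of DMSO 12 h, 33 with only the compared groups, and 34 to 107 with 1 library left out. At 24 h it called 54, and 12 to 71 likewise; at 3 h it called 2, and 1 to 3 over the settings. The mean effect called 0 entries with edgeR and up to 16 with no filter. DMSO 12 h against 0 h called 103, and 7 with only the compared groups; PA 24 h against 3 h called 32, and 1 to 49 without 1 library. PA effects that differed between times numbered 48, and 25 to 87 with 1 library left out. Over the settings, 12 h against 3 h called 0 to 20 in PA cells and 0 to 41 in both treatments, and 24 h against 3 h in both called 0 to 17. Hairpins called numbered 9 for PA against DMSO at 12 h (1 to 29), 10 over the DMSO times (5 to 19), and 4 at 12 h and 2 at 24 h against 3 h in both treatments (0 to 5 and 0 to 3).

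The letters A and B showed no sign of pairing: same-letter deviations correlated from -0.14 to 0.09 over 21 pairs of groups. Noise brings such correlations toward 0, so a shared culture or preparation is not excluded. With the letter as a replicate block, miR-22-5p at 12 h against 3 h in both treatments was -0.79 (edgeR adjusted p = 0.101), and no call of a miR-22 result changed. The 5p strand had 71 reads in its shallowest library.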
